A study of Homo sapiens with 17 samples.

Results

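The mitotic kinesin motors described here are 10 genes taken by symbol, namely KIF2C, KIF4A, KIF11, KIF14, KIF15, KIF18A, KIF18B, KIF20A, KIF23 and KIFC1, out of 17808 genes with an RPKM value. Kinesins are motor proteins that use ATP to walk along microtubules or to shorten them. A subset of the family builds and separates the spindle in mitosis and then divides the cell at cytokinesis, while other kinesins carry vesicles and organelles in every phase of the cell cycle. Transcripts of the mitotic subset are made mainly late in the cell cycle. Many promoters of such late genes carry a cell cycle genes homology region (CHR), which the MuvB complex binds, and upstream of it CCAAT boxes, which the factor NF-Y binds.

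RNA-seq was made from HepG2, a human hepatocellular carcinoma cell line, labelled wild type and grown in DMEM with fetal bovine serum. Of 17 samples, the 9 RNA-seq libraries fell into 3 groups of 3, and the other samples, 6 of ChIP-seq and 2 of ATAC-seq, are not used. The NC libraries came from untreated cells, at 24 h by their titles. The 2-DG libraries came from cells given 40 mM 2-DG, at 48 h. This is the usual short name of 2-deoxyglucose, a glucose analogue that slows glycolysis. The Nala libraries came from cells given 40 mM Nala, a name that the labels do not spell out, at 48 h by their titles and 24 h by the design text. No untreated RNA-seq library carries a 48 h label, so time and treatment cannot be told apart in 2-DG against NC. By the titles the same holds for Nala against NC. By the design text Nala is at 24 h, as NC is by its titles, and it then holds for Nala against 2-DG instead. Which time is right for Nala is not known. The treatment field of Nala replicate 1 holds a garbled entry that begins with Nala, while its title is like those of the other Nala libraries.

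The counted total was 6199778 to 6653130 reads per library. The design text calls the replicates biological, but Nala replicates 2 and 3 agreed within sampling noise, with a chi-square per degree of freedom of 0.923 against 2.12 to 9.89 in the other replicate pairs, and were counted as 1 sample (n = 2 for Nala). Of 17 hepatocyte markers, 6 had a value. Only VTN, CEBPA and HNF4A of these reached the level at which a gene was tested, and APOB, a defining hepatocyte gene, was at or near 0 in every library. The summed RPKM of those 6 markers was 52.3 to 105.5 in NC, 29.3 to 37.6 in 2-DG and 55.9 to 70.2 in Nala. The 5 fibroblast and stromal markers with a value summed to 44.6 to 85.4 RPKM in NC, 33.2 to 50.9 in 2-DG and 60.5 to 69.9 in Nala. For 5 endothelial markers the sum was 1.33 to 7.91, 1.79 to 2.17 and 2.30 to 4.54 RPKM in the same order. For 5 immune markers it was 25.1 to 28.5, 9.44 to 15.7 and 25.9 to 28.2 RPKM. The part of these shifts in the kinesin values was not tested.

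The promoters of 6 members are shown because every member carried TTTGAA or TTTAAA, on either strand, close to its transcription start. Each sequence runs 5′ to 3′ on the strand of the gene, from 80 bases before a RefSeq start (GRCh38.p14) to 10 bases after it. The KIFC1 gene begins at 33391461 in RefSeq, upstream of the window shown, so positions in KIFC1 refer to a start farther downstream. Capitals mark the CHR letters TTTGAA or TTTAAA and the NF-Y letters CCAAT, or their reverse complements.
KIF20A, chr5:138179032-138179121, plus strand: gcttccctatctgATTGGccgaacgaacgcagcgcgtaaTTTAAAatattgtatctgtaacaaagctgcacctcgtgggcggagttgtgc
KIF14, chr1:200620742-200620831, minus strand: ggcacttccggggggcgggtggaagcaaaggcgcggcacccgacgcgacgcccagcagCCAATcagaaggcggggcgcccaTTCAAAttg
KIF4A, chrX:70290024-70290113, plus strand: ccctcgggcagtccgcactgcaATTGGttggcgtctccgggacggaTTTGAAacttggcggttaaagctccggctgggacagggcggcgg
KIF18A, chr11:28108147-28108236, minus strand: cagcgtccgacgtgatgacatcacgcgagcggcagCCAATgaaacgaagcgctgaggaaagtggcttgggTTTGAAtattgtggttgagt
KIF2C, chr1:44739757-44739846, plus strand: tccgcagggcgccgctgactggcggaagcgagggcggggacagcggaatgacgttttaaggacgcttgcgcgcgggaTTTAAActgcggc
KIFC1, chr6:33391743-33391832, plus strand: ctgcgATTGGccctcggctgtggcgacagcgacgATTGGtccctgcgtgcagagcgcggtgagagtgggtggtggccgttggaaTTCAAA

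CHR letters on either strand were found between 250 bases before and 50 bases after the start in 10 of 10 members, against 24.0% of 35116 promoter windows of the same length, some genes having more than 1 start. Between 60 bases before and 20 after the start, a window chosen after the positions had been seen, 10 of 10 members held them, against 6.46% of all windows and 0 of 27 windows of kinesins outside mitosis. In that narrow window the element began between 55 bases before the start in KIF23 and 5 bases after it in KIFC1. CCAAT was found in 8 members, all but KIF2C and KIF15, against 34.6% of windows. Both elements were present in those 8 members, against 9.27% of windows, and the element of the CHR type lay downstream of a CCAAT in each. The shortest distance between their first bases was 9 bases in KIF23, 23 to 26 bases in KIF14, KIF4A, KIF11 and KIF20A, 34 and 35 bases in KIF18B and KIF18A, and 50 bases in KIFC1. The E2F letters TTCGCGC or TTGGCGC were in 3 members, KIF15, KIF18A and KIF18B, against 5.06% of windows. The letters TATAAA were in 0 of 10 members, against 11.5% of windows. These are matches of letters and not measured binding sites.

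**Figure D1:**
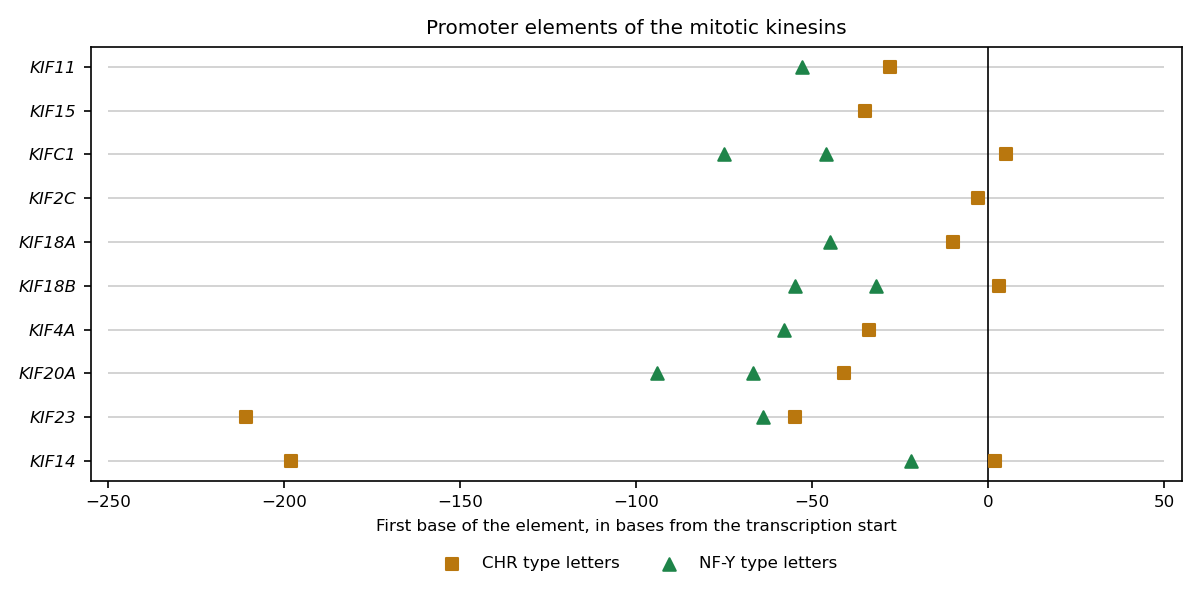
First base of each CHR type element (squares) and each NF-Y type element (triangles), in bases from the transcription start, for the 10 members. Every member has a square between 55 bases before and 5 bases after the start, and 8 of 10 also have a triangle upstream of it.

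A gene was tested where at least 3 of the 9 libraries reached 1 RPKM, which left 12922 genes and 9 of the 10 members. The test was limma on log2(RPKM + 1), a scale that understates the change of low genes, and a gene was called at a Benjamini-Hochberg adjusted p under 0.05 over all genes tested. All 9 tested members fell with 2-DG relative to NC, by 1.54 to 2.99 on the log2 scale. In that comparison 43.3% of all genes were called and 20.7% were called lower, so a call alone sets the motors little apart. By size, 6 of 9 members were called at least 4-fold lower, against 0.851% of all genes. Their median log2 fold change was -2.56, against 0.02 over all genes tested. The 3 libraries of 2-DG lay below the 3 of NC for each of the 9, as for 25.0% of all genes. In bulk RNA, fewer dividing cells and less of these transcripts per cell cannot be told apart.

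The motors that set up the spindle poles include KIF11, which slides antiparallel microtubules apart, and KIF15, which helps to hold the poles apart and can stand in for KIF11. KIF11 was at 35.92, 36.78 and 36.13 RPKM in NC replicates 1 to 3, at 7.75, 7.47 and 8.92 with 2-DG and at 33.79, 27.62 and 28.18 with Nala. The 2-DG libraries lay far below the other 6, and the Nala libraries lay below the NC libraries without overlap. KIF11 fell with 2-DG by 2.05 on the log2 scale (standard error 0.103, adjusted p = 1.72e-06 with limma). KIF15 stood at 17.92, 18.12 and 18.85 RPKM in NC, at 2.00, 1.87 and 2.28 with 2-DG and at 15.55, 13.32 and 13.11 with Nala. Its groups did not overlap either, and its mean with 2-DG was 11.2% of that in NC, against 22.2% for KIF11. The fall of KIF15 was 2.66 on the log2 scale (standard error 0.113, adjusted p = 8.69e-07 with limma), on 59 to 71 reads per 2-DG library. KIF15 overlaps TMEM42 over 3753 bp, and the sources used here do not say whether strand was counted. TMEM42 itself had 16.8 to 17.9 RPKM in NC and 24.6 to 27.6 with 2-DG.

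KIFC1, a motor that walks towards microtubule minus ends and draws the ends together at the poles, was the member that was not tested. It was listed at 0.229, 0.339 and 0.119 RPKM in NC, at 0, 0.0566 and 0.287 with 2-DG and at 0, 0.167 and 1.06 with Nala, which is 0 to 19 reads. Protein-coding genes near it on chromosome 6 were also close to 0. PFDN6, RGL2, TAPBP, ZBTB22 and DAXX on the left, and PHF1, CUTA and ZBTB9 on the right, were at no more than 3.22 RPKM in any library, whereas BAK1, farther to the right, was at 13.4 to 23.5 RPKM. These neighbours were looked up after the KIFC1 values had been seen. PFDN6, a subunit of the prefoldin chaperone that cells in general use, was at 0 to 3.22 RPKM. The values near 0 are therefore given as listed and not read as a level of KIFC1.

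The motors that set microtubule length and chromosome position are KIF2C, which takes tubulin off microtubule ends and corrects faulty attachments at centromeres, KIF18A, which damps the movements of chromosomes at the equator, and KIF18B, which limits the length of astral microtubules. KIF2C was at 47.42, 49.54 and 46.74 RPKM in NC, at 12.64, 12.56 and 12.00 with 2-DG and at 43.26, 38.86 and 37.59 with Nala. It fell with 2-DG by 1.87 on the log2 scale (standard error 0.0800, adjusted p = 8.69e-07 with limma), the smallest standard error among the members. KIF18A was at 18.99, 24.30 and 21.91 RPKM in NC, at 6.71, 6.76 and 6.90 with 2-DG and at 18.81, 16.43 and 16.23 with Nala. This was the least lowered member, with 31.2% of its NC mean left, and it fell by 1.54 on the log2 scale (standard error 0.113, adjusted p = 1.36e-05 with limma). KIF18B, its closest relative among the members, was at 47.41, 54.26 and 55.06 RPKM in NC, at 10.00, 6.38 and 8.07 with 2-DG and at 46.61, 44.77 and 43.60 with Nala. It fell by 2.56 on the log2 scale (standard error 0.138, adjusted p = 2.65e-06 with limma) to 15.6% of its NC mean. The RPKM of KIF18B was 2.23 to 2.51 times that of KIF18A in NC and 0.945 to 1.49 times that of KIF18A with 2-DG. For these 3 motors the 2-DG and the Nala libraries each lay below the NC libraries without overlap.

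The motors of the central spindle and of cytokinesis are KIF4A, which with PRC1 sets the overlap of the midzone microtubules, KIF20A, which brings the chromosomal passenger complex to the midzone, KIF23, which forms centralspindlin with RACGAP1, and KIF14, which brings citron kinase to the midbody. KIF20A was the most abundant member in NC, at 51.12, 56.49 and 55.46 RPKM, and was at 5.44, 5.68 and 6.84 with 2-DG and 45.29, 44.87 and 45.38 with Nala. It had the largest fall of the members, 2.99 on the log2 scale (standard error 0.0971, adjusted p = 7.67e-07 with limma), and lay at rank 9 from the lowest log2 fold change of all 12922 genes. KIF20A overlaps CDC23 by 74 bp, and CDC23 stood at 28.6 to 30.3 RPKM in NC and 25.0 to 31.8 with 2-DG. KIF14 was at 19.12, 23.27 and 21.18 RPKM in NC, at 1.60, 1.83 and 2.05 with 2-DG and at 19.52, 15.88 and 16.01 with Nala. It fell by 2.97 on the log2 scale (standard error 0.128, adjusted p = 8.69e-07 with limma), at rank 10, and its RPKM mean with 2-DG was 8.61% of that in NC, the smallest share left of any tested member. The 2-DG value rests on 72 to 96 reads per library.

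KIF4A was at 23.72, 27.80 and 25.83 RPKM in NC, at 3.03, 2.13 and 3.67 with 2-DG and at 22.32, 19.61 and 20.26 with Nala. It fell by 2.78 on the log2 scale (standard error 0.150, adjusted p = 2.65e-06 with limma), on 66 to 112 reads per 2-DG library. KIF4B, an intronless and nearly identical copy on chromosome 5, held 4.21 to 6.74% as many reads as KIF4A in every library, and how the counting shared reads between the copies is uncertain. KIF23 was at 42.20, 47.98 and 47.16 RPKM in NC, at 14.51, 11.97 and 11.81 with 2-DG and at 43.91, 37.06 and 38.00 with Nala. It fell by 1.77 on the log2 scale (standard error 0.107, adjusted p = 4.27e-06 with limma) and kept 27.9% of its NC mean. KIF23 stood below KIF20A in NC, at 0.826 to 0.850 times its RPKM, and above it with 2-DG, at 1.73 to 2.67 times. Of these 4 motors, KIF14 and KIF23 had Nala libraries that overlapped those of NC, and KIF4A and KIF20A did not.

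**Figure D2:**
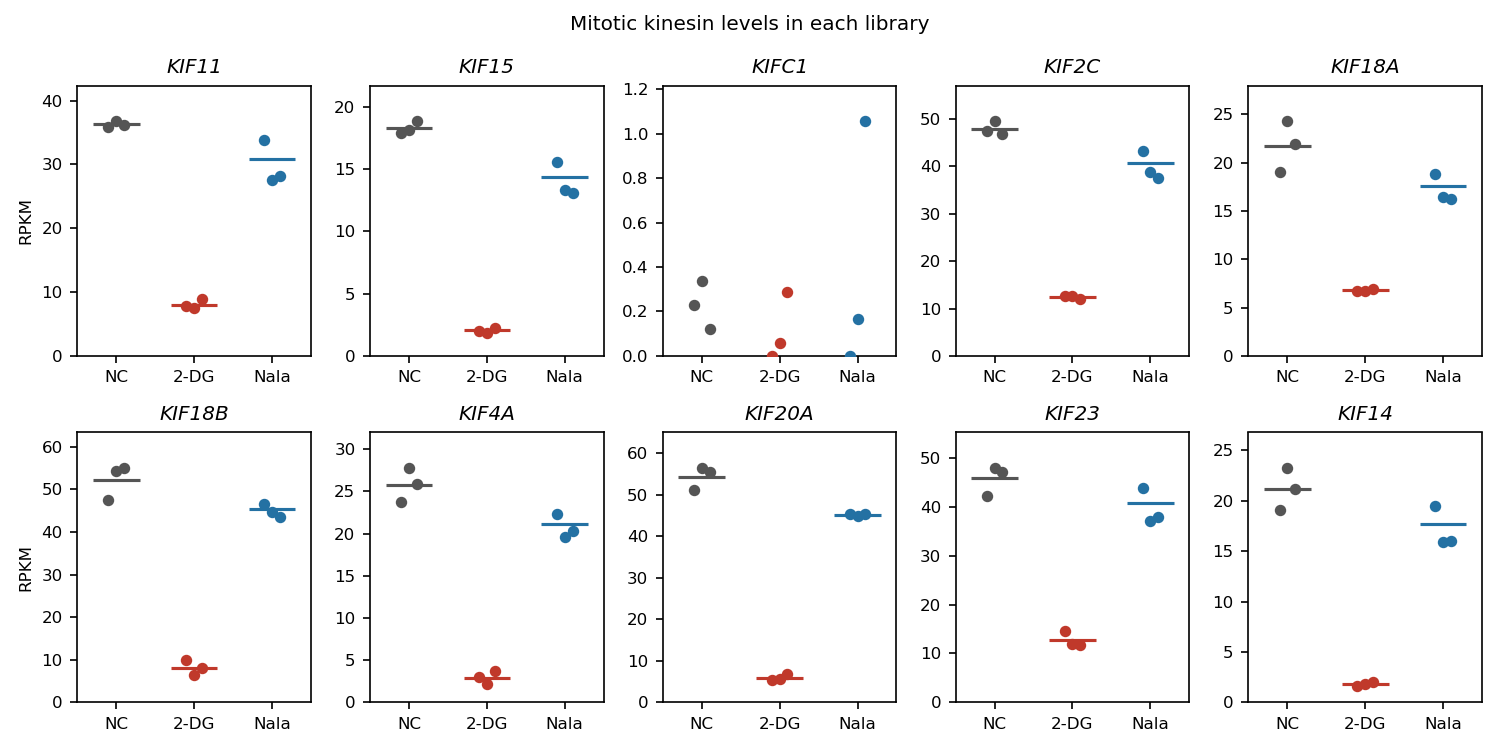
RPKM of each member in the 9 libraries, with replicates 1 to 3 from left to right in each group and a line at the group mean, in which Nala replicates 2 and 3 count once. Apart from KIFC1, whose highest value is 1.06 RPKM and which has no mean line, each member has its 3 2-DG points below all NC and Nala points, and its Nala mean below its NC mean.

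Summed over the 9 tested members, NC libraries held 323.6 ± 17.9 RPKM (SD, n = 3) and 2-DG libraries 61.0 ± 3.77 RPKM (SD, n = 3), which is 18.8% of NC. The Nala sum was 273.7 ± 21.7 RPKM (SD, n = 2), or 84.6% of NC. NC replicate 1 was the lowest NC library for 8 of the 9 members, and Nala replicate 1 was the highest Nala library for 8 of 9. With each library left out in turn, the fall of a member with 2-DG stayed between 1.46 and 3.08 on the log2 scale, and all 9 were called each time.

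The order of the levels differed between groups. By mean RPKM the order in NC was KIF20A, KIF18B, KIF2C, KIF23, KIF11, KIF4A, KIF18A, KIF14 and KIF15, with overlapping library ranges between neighbours among the highest 4 and among KIF4A, KIF18A and KIF14. In 2-DG it was KIF23, KIF2C, KIF18B, KIF11, KIF18A, KIF20A, KIF4A, KIF15 and KIF14, and there KIF23 overlapped KIF2C, KIF18B overlapped KIF11, KIF18A overlapped KIF20A, and KIF4A, KIF15 and KIF14 overlapped in turn. KIF20A thus stood at the top in NC and at the sixth place with 2-DG. In Nala the order was that of NC except that KIF18B and KIF20A, and KIF14 and KIF18A, changed places, and both of these pairs overlapped in Nala and in NC.

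Set against the mean of the other 8 tested members within the same library, KIF18A went from -0.67 ± 0.10 in NC to 0.24 ± 0.09 in 2-DG (log2 difference, SD, n = 3 in each). KIF23 went from 0.50 to 1.16, KIF2C from 0.58 to 1.13 and KIF11 from 0.14 to 0.48 on this relative scale. KIF20A went from 0.78 ± 0.01 to 0.06 ± 0.14, KIF14 from -0.71 to -1.41, KIF4A from -0.40 to -0.88 and KIF15 from -0.93 to -1.28. For these 8 members the NC and 2-DG libraries did not overlap, and the two-sided exact permutation p was 0.1, the smallest that 3 against 3 libraries allow (0.113 adjusted over the 9 members). KIF18B went from 0.71 to 0.49 with overlapping libraries (exact permutation p = 0.3). A value centred on the other members must go up for some members where it goes down for others. Motors with related roles lay on opposite sides in KIF11 and KIF15 and in KIF23 and KIF20A. In these pairs and in KIF18B and KIF18A, picked after their values had been seen, the log2 difference between the partners moved by 0.62 for KIF11 minus KIF15, by 1.22 for KIF23 minus KIF20A and by -1.02 for KIF18B minus KIF18A from NC to 2-DG (exact permutation p = 0.1 for each).

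**Figure D3:**
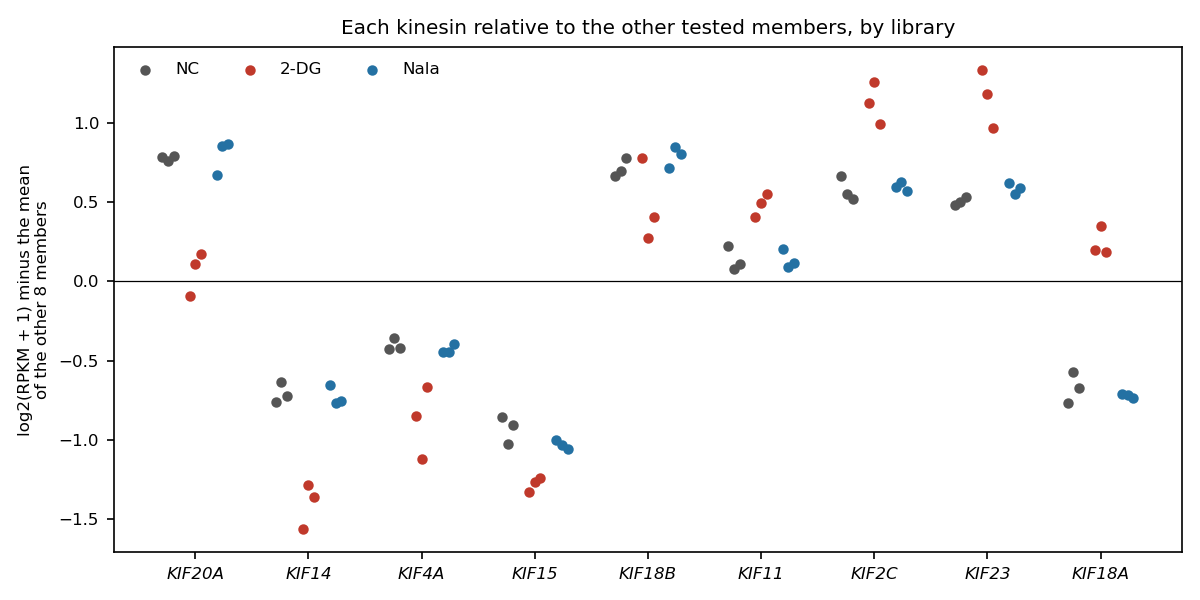
Difference in log2(RPKM + 1) between each tested member and the mean of the other 8 in the same library, with 3 points per group. Red 2-DG points lie below the grey NC points for KIF20A, KIF14, KIF4A and KIF15, above them for KIF11, KIF2C, KIF23 and KIF18A, and overlap them for KIF18B, while the blue Nala points lie near NC.

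With Nala, all 9 tested members had a log2 fold change below 0 relative to NC, from -0.17 in KIF23 to -0.33 in KIF15, and 0 of 9 were called by limma. Over all genes 0.0619% were called. At an unadjusted p under 0.05 there were 4 members, KIF15, KIF2C, KIF18A and KIF20A, against 725 of all 12922 genes tested. Limma-voom on reads recovered from the RPKM values called 0 of 9 members as well. The adjusted p of the members lay between 0.77 and 0.997, and between 0.225 and 1.0 over every alternative tried. The 95% interval of KIF15 ran from -0.62 to -0.05, that of KIF18B from -0.54 to 0.15 and that of KIF4A, the widest, from -0.65 to 0.10. Of the 9 intervals, which are not adjusted for the number of genes, those of the same 4 members excluded 0. The 3 Nala libraries lay below the 3 NC libraries for 7 of 9 members, all but KIF14 and KIF23, as for 8.03% of all genes. The members were measured in the same libraries, so their shared direction is not 9 separate observations.

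Between the treatments, all 9 tested members were higher with Nala than with 2-DG, by 1.25 (KIF18A) to 2.73 (KIF20A) on the log2 scale, with limma adjusted p from 4.39e-06 to 0.000127. The 3 Nala libraries lay above the 3 of 2-DG for each of the 9, as for 28.9% of all genes. In that comparison 35.9% of all genes were called and 17.9% were called higher, and the median log2 fold change was 2.33 for the members and -0.01 over all genes. Without Nala replicate 1 the number of genes called fell from 4639 to 2212, and 9 members passed the threshold. That leaves Nala as 1 averaged sample, whose spread is assumed to be that of the NC and 2-DG groups. Both treatments were set against the same NC libraries, so the contrasts are not independent of each other. By the design text the treatments also differ in time, at 24 h and 48 h.

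**Figure D4:**
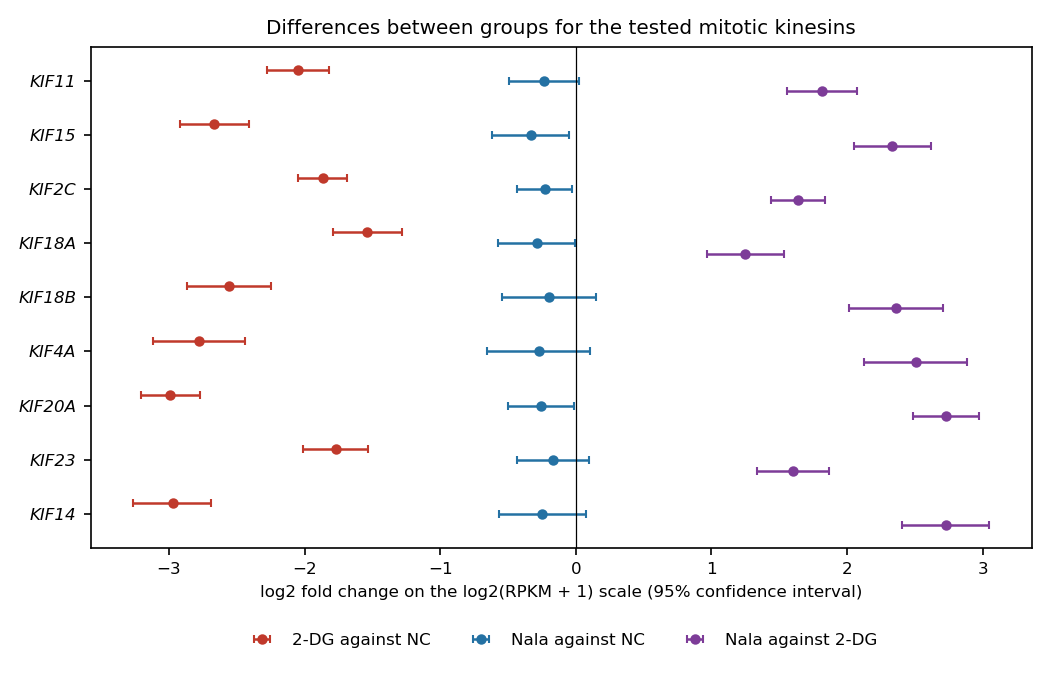
Log2 fold change of the 9 tested members on the log2(RPKM + 1) scale, with 95% confidence intervals from limma, in the 3 comparisons. The red 2-DG against NC values lie from -2.99 to -1.54, the blue Nala against NC values from -0.33 to -0.17 with 4 intervals that exclude 0, and the purple Nala against 2-DG values from 1.25 to 2.73.

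Other mitotic kinesins with a value were CENPE, KIF20B, KIF22 and KIF2A. Of these 4 of 4 fell with 2-DG, where 20.7% of all genes were called lower. CENPE, which carries chromosomes to the equator, went from 16.3 ± 0.88 RPKM in NC to 1.32 ± 0.13 with 2-DG (SD, n = 3), a log2 fold change of -2.90 (standard error 0.132, adjusted p = 1.08e-06 with limma). KIF20B, which acts in cytokinesis, fell by 2.06 on the log2 scale. KIF22, a chromosome arm motor, fell by 1.01, from 62.8 to 30.7 RPKM. KIF2A, a microtubule depolymerase that also works in neurons, fell by 0.43, the smallest change among the mitotic kinesins. In Nala against NC 0 of these 4 were called by limma, with 1 at an unadjusted p under 0.05, as were 725 of 12922 genes.

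Kinesins outside mitosis did not share the direction. Of 19 tested, 4 rose and 5 fell with 2-DG, near the shares of all genes called higher (22.6%) and lower (20.7%), with a median log2 fold change of 0.02, equal to that of all genes. KIF21B, a regulator of microtubule growth known from neurons and T cells, rose from 4.28 ± 1.18 to 12.6 ± 0.41 RPKM (log2 fold change 1.38, SE 0.161, limma adjusted p = 0.000192). KIF3C, a transport motor of the kinesin-II type, fell from 7.91 ± 0.73 to 1.81 ± 0.19 RPKM (log2 fold change -1.66), and KIF24, a centriolar kinesin that restrains cilia, fell by 1.30. KIF5B, the conventional kinesin heavy chain, stood at 50.8 RPKM in NC and 50.6 with 2-DG. KIF1C, a vesicle motor, was at 42.0 and 42.5 RPKM, with a log2 fold change of 0.02 that turned to -0.004 under median-of-ratios scaling. With a filter of 5 RPKM in place of 1, 2 of these kinesins rose in place of 4. The other 2, KIF17 and KIF27, were below 5 RPKM in every library and so were not tested.

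Of the 6 light chains and adaptors that link kinesins to cargo, 3 rose with 2-DG and 0 fell, where 22.6% of all genes were called higher. KLC4 rose by 0.62, KLC2 by 0.48 and KIFAP3 by 0.37 on the log2 scale, and the KIFAP3 call was lost under 8 alternatives, among them no filter and 5 left-out libraries (limma adjusted p from 0.0613 to 0.141). KLC1, not called at -0.17, passed under 5 alternatives, among them median-of-ratios scaling (limma adjusted p from 0.0302 to 0.05). With 1 library left out, 0 to 2 of the light chains and adaptors were called lower. For cytoplasmic dynein and dynactin, the opposing motor and its activator, 5 of 19 tested genes rose and 2 fell, near or below the 22.6% and 20.7% of all genes called in these directions. NDEL1, a dynein regulator, was the most changed, from 27.7 to 50.3 RPKM. DYNLL1, a light chain, stood at 68.8 RPKM in NC and 69.3 with 2-DG, and its log2 fold change of 0.01 turned to -0.02 under median-of-ratios scaling.

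Tubulins, the subunits of the track itself, mostly fell with 2-DG, 11 of 14 tested against 1 that rose. Over all genes 20.7% were called lower and 22.6% higher. The median log2 fold change of the tubulins was -0.61, against 0.02 over all genes tested. TUBA4A went from 62.9 ± 4.92 to 29.7 ± 4.92 RPKM (SD, n = 3), a log2 fold change of -1.07 (standard error 0.119, adjusted p = 0.000148 with limma). TUBB4A fell by 1.89 and TUBB2A by 1.25, although both were uneven within NC, TUBB4A ranging from 4.93 to 10.2 RPKM. The genes of this family are similar in sequence, so reads may have been split between them in ways that are not known. TUBB6 stood at 43.5 RPKM in NC and 43.0 with 2-DG and was not called.

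Proteins that work with the mitotic kinesins or regulate them fell as well. Of 25 tested, 23 fell with 2-DG and 0 rose, where 20.7% of all genes were called lower and 22.6% higher. Their median log2 fold change was -1.78, against 0.02 over all genes tested. PRC1, the midzone partner of KIF4A, fell from 74.3 ± 3.41 to 23.1 ± 3.01 RPKM, and RACGAP1, the partner of KIF23, from 57.6 ± 1.35 to 23.1 ± 2.13 (SD, n = 3). TPX2, a spindle assembly factor that binds KIF11 and KIF15, fell from 78.7 to 22.0 RPKM. CIT, the citron kinase that KIF14 recruits, fell by 2.82 on the log2 scale, against 2.97 for KIF14 itself. HMMR, a spindle microtubule protein, fell by 2.95 and PSRC1, which recruits KIF2A to the spindle, by 2.90. The exceptions were NUMA1, which anchors dynein at the poles and stood at 39.8 RPKM in NC and 33.9 with 2-DG (adjusted p = 0.0522 with limma and 0.0255 with voom), and ARF6, a small GTPase with functions in membrane traffic, at 31.4 and 30.4 RPKM. In Nala against NC 0 of 25 were called by limma, with 1 at an unadjusted p under 0.05, as were 725 of 12922 genes. Against 2-DG 22 of 25 were called higher with Nala, where 17.9% of all genes were.

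**Figure D5:**
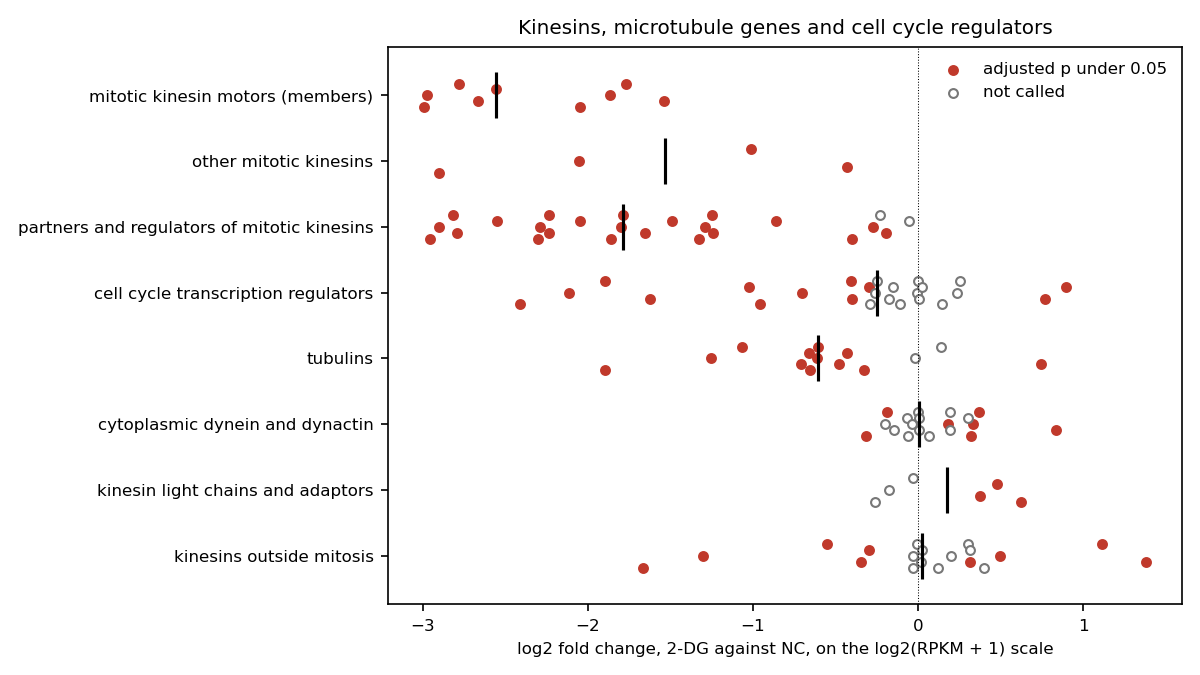
Log2 fold change of 2-DG against NC for each tested gene in 8 lists, filled red where the limma adjusted p was under 0.05, with a black line at the list median. Members (median -2.56), other mitotic kinesins and partners lie to the left, tubulins have a median of -0.61, and dynein, adaptors and the kinesins outside mitosis lie on both sides of 0.

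Among 25 transcription regulators of the cell cycle, 10 fell with 2-DG and 2 rose, where 20.7% of all genes were called lower and 22.6% higher. In either direction 12 of 25 were called, where 43.3% of all genes were. MYBL2, the B-MYB subunit that joins MuvB at CHR elements, fell from 91.5 ± 4.99 to 24.0 ± 2.59 RPKM (SD, n = 3), a log2 fold change of -1.89 (standard error 0.0861, adjusted p = 1.08e-06 with limma). FOXM1, which acts at the same promoters, fell from 67.7 to 21.4 RPKM. The MuvB subunits themselves went different ways, since LIN9 fell from 10.9 to 4.86 RPKM, LIN37 rose from 12.6 to 22.2 RPKM (log2 fold change 0.77, limma adjusted p = 0.00526), and LIN52, LIN54 and RBBP4 were not called. E2F8 and E2F2 fell by 2.41 and 2.11 on the log2 scale. CDKN1A, which encodes the cell cycle inhibitor p21, rose from 59.3 ± 11.3 to 110.3 ± 6.92 RPKM (log2 fold change 0.90, limma adjusted p = 0.00129). The pocket proteins RBL1, at 21.9 RPKM in both groups, and RBL2, at 22.5 and 22.8, were not called. The proliferation markers MKI67, TOP2A, PCNA, MCM2 and CCNA2 summed to 308.7 to 324.5 RPKM in NC. Their sum was 129.5 to 141.7 RPKM in 2-DG and 277.4 to 292.2 in Nala. Of these markers 5 of 5 fell with 2-DG, where 20.7% of all genes were called lower.

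The genes whose profile over the 8 samples was most like the mean profile of the members, by Pearson correlation of log2(RPKM + 1) among 10267 genes with a mean of at least 5 RPKM, were GTSE1, EXO1, ANLN, BUB1B and CDC45, with r from 0.99869 to 0.99914. The samples fall into a low 2-DG group and the rest, so such values mostly reflect that one contrast and are given as a description. GTSE1, which binds microtubules in mitosis, went from 35.9 RPKM in NC to 4.34 with 2-DG and 30.0 with Nala. ANLN, the scaffold of the cytokinetic ring, went from 67.2 to 12.8 and 58.1 RPKM. Among the members themselves KIF15 lay nearest to the mean profile (r = 0.99911) and KIF18A farthest from it (r = 0.99278).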

How the data were processed

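The deposited table holds RPKM values of the authors for 9 RNA-seq libraries. Per the submitters' processing notes, which do not separate the assays, the build was hg38 and the tools included RSEM 1.2.8, HISAT2 2.1.0, STAR 2.7.6a, Bowtie2 2.2.5, fastp 0.23.1 and DESeq. The sources used here do not say which of these made the RPKM values or whether strand was used.

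Values were whole multiples of 1 read for 100% of genes, within 0.0001 reads, which gave library totals and reads. Genes that reached 1 RPKM in 3 or more of 9 libraries were fitted in 3 groups with limma 3.58.1 (R 4.3.3) on log2(RPKM + 1), with an intensity trend and 5 residual degrees of freedom, and checked on simulated data. Calls used a Benjamini-Hochberg adjusted p under 0.05. Nala replicates 2 and 3 were averaged after a chi-square test of their reads. Single ratios were tested by exact permutation (scipy 1.17.1). Named genes are all members, the 5 genes most like them and, from each list, up to 3 called genes with the largest change and 2 most abundant uncalled ones in 2-DG against NC, and genes called in Nala against 2-DG. RBL1, RBL2, LIN52, LIN54, RBBP4 and the neighbours of KIFC1 were picked after their values were seen. Members and lists were chosen with earlier results of these data known. Promoter sequences and gene positions are from RefSeq, GRCh38.p14, in which 10 of 10 members matched. A planned description of the proteins was not run.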

Additional observations from a re-analysis of the deposited data

How the results depend on the processing

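The 9 tested members kept their direction and their side of the threshold in all 3 comparisons under all 20 alternatives, namely 2 filters, a pseudocount of 0.1, 3 other scalings, no trend, the compared groups alone, the Nala pair kept apart, the replicate block, voom and each library left out. The number of genes called in Nala against NC (8) moved to 25 with no filter, 15 with a filter of 5 RPKM, 13 with median-of-ratios scaling, 17 with quantile normalization, 16 with a common sum of RPKM, 64 with the Nala pair apart, 54 with voom and 2 to 23 with 1 library left out. In Nala against 2-DG it was 2212 to 5261 with 1 library left out, the lowest without Nala replicate 1, which leaves 1 averaged Nala sample and a spread taken from the other groups. The causes of the other moves were not tested. The replicate block was run with the Nala pair apart and gave 31 in Nala against NC, 5867 in 2-DG against NC and 5708 in Nala against 2-DG, against 64, 6019 and 5858 with the pair apart and no block. Same-numbered libraries did not deviate together (r of deviations from -0.119 to 0.0772), so the numbers are not taken as pairs. Log2 fold changes of uncalled genes that changed sign in 2-DG against NC were those of KIF1C (-0.003837) and DYNLL1 (-0.01703) with median-of-ratios scaling. With 1 library left out they ranged from -0.07869 to 0.0751 for KIF5B, -0.04332 to 0.09371 for KIF1C, -0.09099 to 0.0878 for KIFBP, -0.06933 to 0.07902 for DYNLL1, -0.08542 to 0.03646 for TUBB6 and -0.1062 to 0.04478 for ARF6. Depth limits the lowest members, where a single read per kb of gene equals 0.150 to 0.161 RPKM. At the upper end, no gene was above 229.6 RPKM or a mean of 1.21 reads per base. The highest depth of KIF20A in a library was 0.37 reads per base. Whether the values of abundant genes were held down was not tested.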
